A study of Mus musculus with 6 samples.

Results

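The genes described are the 4 mouse Fc gamma receptors, Fcgr1, Fcgr2b, Fcgr3 and Fcgr4, and Fcer1g, which encodes the common gamma chain. They were taken by gene name from GENCODE M21 (GRCm38) and are 5 of the 55487 Ensembl genes measured, of which 13829 were expressed highly enough to be tested, these 5 included. RNA-seq was made in J774, an immortalized mouse macrophage line, after liposome-mediated transfection of control siRNA or of an siRNA against NCOA4, the cargo receptor that carries ferritin to lysosomes for degradation. There were 3 biological replicates of each group and 6 libraries in all. The labels give the 2 groups the genotypes control and NCOA4 knockdown, and name no iron, hepcidin or erythrocyte treatment. For both groups they give DMEM with fetal bovine serum as the medium, whereas the study's methods name AMEM with this serum. The model is limited to a single cell line and, by the study's methods, a single NCOA4 siRNA, so an effect of NCOA4 loss and an off-target effect of this siRNA cannot be told apart.

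Fc gamma receptors bind the constant part of IgG and so let macrophages take up IgG-coated particles, such as opsonized erythrocytes or bacteria. The activating receptors signal through the gamma chain, whose immunoreceptor tyrosine-based activation motif (ITAM) is phosphorylated by Src-family kinases and then recruits the kinase Syk. The inhibitory receptor Fcgr2b carries its own inhibitory motif (ITIM), recruits the lipid phosphatase SHIP-1, and sets the threshold at which the activating receptors trigger uptake and cytokine release.

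The start-site regions of the receptors are shown as background, and whether they have a part in the expression differences described next was not tested. Each sequence is the GRCm38 strand of the gene, read 5′ to 3′, credited to RefSeq, and the first 3 end at the base before the RefSeq start site. For Fcgr2b only a 30-base window is printed, which GENCODE M21 places in exon 1 of that gene. The Fcgr1 sequence lies upstream of the annotated gene and that of Fcgr4 also, up to its last bases, whereas most of the Fcgr3 sequence lies in an intron of a longer Fcgr3 transcript. Capitals mark matches to 4 motifs.
Fcgr1, chr3:96293970-96294219, minus strand: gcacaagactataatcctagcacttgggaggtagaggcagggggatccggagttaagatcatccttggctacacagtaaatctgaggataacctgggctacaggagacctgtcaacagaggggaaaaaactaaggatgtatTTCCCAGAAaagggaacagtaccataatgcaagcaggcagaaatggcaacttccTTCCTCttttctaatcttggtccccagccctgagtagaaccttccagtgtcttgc
Fcgr3, chr1:171059404-171059653, minus strand: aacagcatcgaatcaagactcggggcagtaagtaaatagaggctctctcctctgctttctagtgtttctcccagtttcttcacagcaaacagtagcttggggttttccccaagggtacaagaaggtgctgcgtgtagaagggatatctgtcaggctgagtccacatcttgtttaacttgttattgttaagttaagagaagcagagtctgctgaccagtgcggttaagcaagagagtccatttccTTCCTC
Fcgr4, chr1:171018676-171018925, plus strand: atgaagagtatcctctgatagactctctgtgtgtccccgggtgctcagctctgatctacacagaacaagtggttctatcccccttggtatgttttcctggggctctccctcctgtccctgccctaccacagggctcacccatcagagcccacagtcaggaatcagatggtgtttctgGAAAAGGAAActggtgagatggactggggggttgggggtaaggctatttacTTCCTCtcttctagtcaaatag
Fcgr2b, chr1:170976087-170976116, minus strand: gaccgtttctTTTCACTTCCccatttggac
The motifs were chosen with these sequences in view and were searched on both strands of the 250 bases. The first is GAGGAA, the core bound by PU.1, the macrophage lineage factor. It lay at -55 to -50 in Fcgr1, -6 to -1 in Fcgr3 and -22 to -17 in Fcgr4, each time reading TTCCTC on the strand shown. Counted from a second RefSeq start site of Fcgr3, the same match lay at -15 to -10. This core is held by 23.3% of the 32851 RefSeq promoters of this length. TTCNNNGAA, the gamma-activated sequence of interferon gamma responses, matched Fcgr1 at -109 to -101 and 7.02% of promoters. GAAANNGAAA, the core of interferon response elements, matched Fcgr4 at -73 to -64 and 2.98% of promoters. GGAANNGAAA, a composite of an ETS and an IRF site, matched Fcgr2b at -35 to -26 and 2.30% of promoters, and no motif matched the 250 bases of Fcer1g. These matches describe letters only.

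Levels are given in TPM, which divides reads by gene length and brings every library to a common total, and whole reads rebuilt from them gave 15502131 to 18282107 reads on genes per library. Ncoa4 itself stood at 19.7, 22.5 and 22.4 TPM in the control libraries and at 9.63, 8.60 and 8.88 TPM in the NCOA4 siRNA libraries, so every library matched its label. Control replicate 1 stood apart from the other control libraries, with a mean chi-square per gene of 11.6 and 11.7 against controls 2 and 3, whereas controls 2 and 3 gave 3.60 between them and the NCOA4 siRNA pairs gave 1.96 to 2.35. Macrophage identity was clear from the markers, as all 8 listed macrophage genes were expressed, with a summed level of 8462 to 8652 TPM in control and 8734 to 8841 TPM in NCOA4 siRNA libraries. Of these, Adgre1, Csf1r and Mertk rose and Cd14 fell. Defining genes of B cells, T and NK cells, and mast cells and basophils were near 0, with summed levels of at most 0.534 TPM in any library, and 3 of 5, 3 of 4 and 4 of 5 of them were listed at 0 throughout. The 5 neutrophil markers summed to 19.0 to 25.4 TPM in control and 15.5 to 20.4 TPM in NCOA4 siRNA libraries, nearly all from S100a8, and 3 were listed at 0. In bulk RNA a change in the number of cells that express a gene and a change in RNA per cell cannot be told apart.

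After NCOA4 siRNA, transcripts of the activating receptors were higher, Fcgr4 most of all, at 2.14 times its control mean, followed by Fcgr1 at 1.51 and Fcgr3 at 1.22 times. The inhibitory receptor Fcgr2b was at 258 ± 6.63 TPM against 287 ± 8.27 TPM in control (SD, n = 3) and did not pass the test, and the gamma chain gene Fcer1g was at 753 TPM in both groups. The transcript balance of activating to inhibitory receptors was accordingly shifted, from 1.5 to 2.32. A gene was called at a Benjamini-Hochberg adjusted p under 0.05 over all 13829 tested genes.

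Fcgr4 encodes FcγRIV, a mouse receptor of intermediate affinity for IgG2a and IgG2b that depends on the gamma chain (ENSMUSG00000059089, chr1:171018920-171029761, plus strand). Its level was 50.2, 60.4 and 55.0 TPM in control replicates 1 to 3 and 118, 119 and 118 TPM in the NCOA4 siRNA replicates. The NCOA4 siRNA libraries lay close together and all stood far above the highest control. On the log2(TPM + 0.5) scale the difference was 1.10 (SE 0.0675, 95% interval 0.94 to 1.26, adjusted p = 0.00127, limma), from 55.2 ± 5.12 to 118 ± 0.965 TPM (SD, n = 3). This was the tenth smallest p among all tested genes. The rebuilt reads behind these values were 362, 460 and 360 in control and 859, 817 and 892 in NCOA4 siRNA libraries.

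Fcgr1 encodes FcγRI, the high-affinity receptor that binds monomeric IgG2a, and is the only receptor of the group on another chromosome (ENSMUSG00000015947, chr3:96282909-96293969, minus strand). Control libraries held 77.9, 87.0 and 90.0 TPM and NCOA4 siRNA libraries 127, 129 and 128 TPM. Again no library of one group reached the range of the other, and the spread was wider among the controls, with a coefficient of variation of 7.43% against 0.818%. The mean rose from 85.0 ± 6.31 to 128 ± 1.05 TPM (SD, n = 3), a difference of 0.59 on the log2 scale (SE 0.0580, 95% interval 0.46 to 0.73, adjusted p = 0.00436, limma). This lies at the edge of the 1.5-fold threshold used in the study, with a ratio of group means of 1.51. Without control replicate 1 the log2 difference was 0.53, below that threshold, and still passed the test.

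Fcgr3 encodes FcγRIII, the low-affinity receptor for IgG1 immune complexes, and was the most abundant of the 3 activating receptors (ENSMUSG00000059498, chr1:171051174-171064935, minus strand). It measured 295, 292 and 281 TPM in control and 359, 359 and 340 TPM in NCOA4 siRNA libraries. The groups were separate, with a gap between them wider than the range within either one. The rise from 289 ± 7.70 to 353 ± 10.9 TPM (SD, n = 3) amounted to 0.29 on the log2 scale (SE 0.0408, 95% interval 0.19 to 0.38, adjusted p = 0.0140, limma). In TPM, 63.6, it was about as large as the rise of Fcgr4, 63.1, although as a ratio it was the smallest of the activating receptors. The call was lost without NCOA4 siRNA replicate 1 (0.27, adjusted p = 0.0810, limma) and without replicate 2 of that group (0.27, adjusted p = 0.0839, limma).

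Fcgr2b, the inhibitory receptor, is transcribed from the minus strand beside Fcgr4 (ENSMUSG00000026656, chr1:170958617-170976547). It measured 280, 296 and 284 TPM in control and 264, 259 and 251 TPM in NCOA4 siRNA libraries. Every NCOA4 siRNA value was below every control value, opposite to the 3 activating receptors. The means were 287 ± 8.27 and 258 ± 6.63 TPM (SD, n = 3), a difference of -0.15 on the log2 scale (SE 0.0397, 95% interval -0.25 to -0.06) that missed the threshold (adjusted p = 0.0822, limma). The test on rebuilt reads called it (-0.14, adjusted p = 0.0322, limma-voom), as did limma after median centring (-0.21, adjusted p = 0.0183). An antisense gene, Gm38204, overlaps the start of Fcgr2b on the plus strand and held 10.7 ± 1.54 and 8.79 ± 0.891 TPM. How the counting treated strand is not given in the sources used here.

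Fcer1g, the gamma chain, was the most abundant of the 5 transcripts, above 98.7% of tested genes (ENSMUSG00000058715, chr1:171229572-171234365, minus strand). Control libraries held 758, 722 and 778 TPM and NCOA4 siRNA libraries 729, 743 and 787 TPM. The groups overlapped throughout, and their means were 753 ± 28.7 and 753 ± 30.3 TPM (SD, n = 3). The log2 difference had a 95% interval of -0.11 to 0.12 (adjusted p = 0.993, limma), so a change of the size seen in Fcgr3 lies outside this interval. Its sign was not stable, turning negative after median centring (-0.06) and after removal of mitochondrial genes (-0.01).

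**Figure D1:**
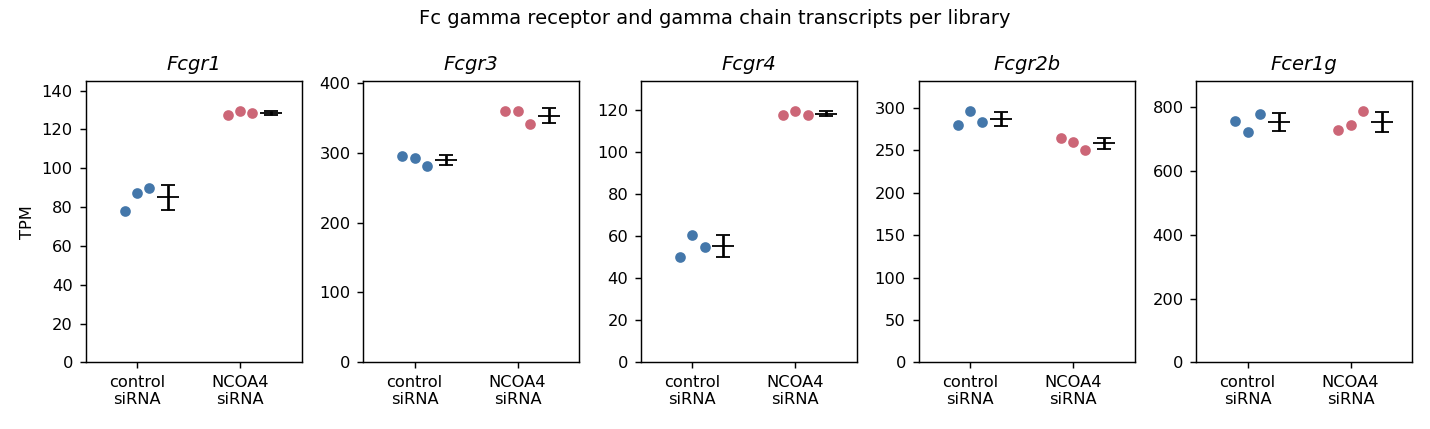
Level of the 5 genes in TPM for each of the 3 control siRNA and 3 NCOA4 siRNA libraries, with points for libraries and bars for the group mean and SD. Fcgr1, Fcgr3 and Fcgr4 lie wholly higher after NCOA4 siRNA, Fcgr2b lies wholly lower, and Fcer1g overlaps at 753 TPM in both groups.

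Of the 5 genes, 3 were called higher at an adjusted p under 0.05 and 0 were called lower by limma, where 1 had an unadjusted p under 0.05 with a negative difference and limma-voom called it. Over all tested genes 3.11% were called higher and 2.31% lower, which is 430 and 320 genes. After median centring the split over all genes turned to 348 higher and 622 lower, and the same 3 activating receptors were still called higher. With the fold threshold added, 2 of the 5 genes were called higher, Fcgr1 and Fcgr4, against 0.861% of all tested genes. By separation of the groups alone, 3 of 5 lay higher without overlap against 16.6% of tested genes, and 1 of 5 lay lower against 11.8%. The exact two-sided permutation p was 0.1 for each receptor, the smallest that 3 against 3 libraries allow, and 1.0 for Fcer1g. Control replicate 1 held the lowest value of Fcgr1, Fcgr4 and Fcgr2b among the controls, and without it the log2 differences were 0.53 for Fcgr1, 0.30 for Fcgr3, 1.03 for Fcgr4, -0.17 for Fcgr2b and 0.01 for Fcer1g.

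**Figure D2:**
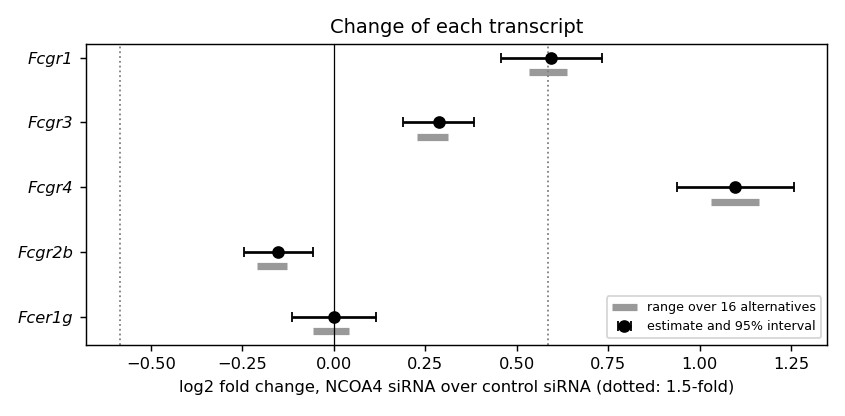
Log2 difference in TPM + 0.5, NCOA4 siRNA minus control siRNA, for the 5 genes, with points for the estimate, black bars for its 95% interval from limma, grey bars for the range over 16 alternatives and dotted lines at 1.5-fold. Fcgr4 (1.10), Fcgr1 (0.59) and Fcgr3 (0.29) lie above 0, Fcgr2b (-0.15) lies below it, and the interval of Fcer1g spans 0.

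The receptors therefore changed unequally, which is seen most directly in their ratios within each library, since these need no scaling between libraries. The summed TPM of Fcgr1, Fcgr3 and Fcgr4 over that of Fcgr2b was 1.51, 1.49 and 1.5 in control and 2.29, 2.35 and 2.34 in NCOA4 siRNA libraries. This activating to inhibitory ratio did not overlap between the groups, which follows from the separation of the single genes in opposite directions. The ratio varied little within a group. Its mean went from 1.5 ± 0.0132 to 2.32 ± 0.0301 (SD, n = 3), or 1.55 times the control ratio. No test was made of this summed ratio. Levels per length depend on the exon length assigned to Fcgr2b, which at 5790 bases was the longest of the 5, but the change does not, and the ratio of rebuilt reads went from 0.477 to 0.732. Without Fcgr4 the ratio went from 1.31 to 1.87, or 1.43 times.

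Each activating receptor separately gained on Fcgr2b. The ratio to Fcgr2b went from 0.192 to 0.459 for Fcgr4, from 0.297 to 0.498 for Fcgr1 and from 1.01 to 1.37 for Fcgr3. Among the activating receptors Fcgr4 gained on the others, from 0.650 to 0.922 of Fcgr1 and from 0.191 to 0.335 of Fcgr3, and Fcgr1 gained on Fcgr3, from 0.294 to 0.364. No ratio named here overlapped between the groups, and each had an exact permutation p of 0.1, the smallest possible. For the ratios to Fcgr2b this outcome was fixed by the single genes and is no separate test. Each activating receptor lay wholly higher and Fcgr2b wholly lower after NCOA4 siRNA.

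The order of the genes and their shares of a sum depend on the exon lengths used, 5790 bases for Fcgr2b and 1736 for Fcgr3. The first listed transcripts of these genes have 3544 and 1347 bases, so their levels relative to each other are uncertain. In TPM, Fcgr3 and Fcgr2b were level in control cells, at 289 ± 7.70 and 287 ± 8.27 TPM (SD, n = 3) with overlapping libraries. They lay above Fcgr1 and then Fcgr4. After NCOA4 siRNA the order was Fcgr3, Fcgr2b, Fcgr1 and Fcgr4, with no overlap between neighbours. The 4 receptors together summed to 716 ± 16.9 TPM in control and 857 ± 17.7 TPM in NCOA4 siRNA libraries. Of that sum, Fcgr2b took 40.0% ± 0.212 in control and 30.1% ± 0.274 after NCOA4 siRNA (SD, n = 3), Fcgr4 went from 7.70% to 13.8% and Fcgr1 from 11.9% to 15.0%. Fcgr3 held 40.4% and 41.2%, with overlapping libraries. Since the gamma chain was level, the activating receptors per gamma chain transcript went from 0.571 ± 0.0329 to 0.797 ± 0.0458 (SD, n = 3), with 0.559, 0.609 and 0.547 in control and 0.828, 0.818 and 0.744 in NCOA4 siRNA libraries.

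**Figure D3:**
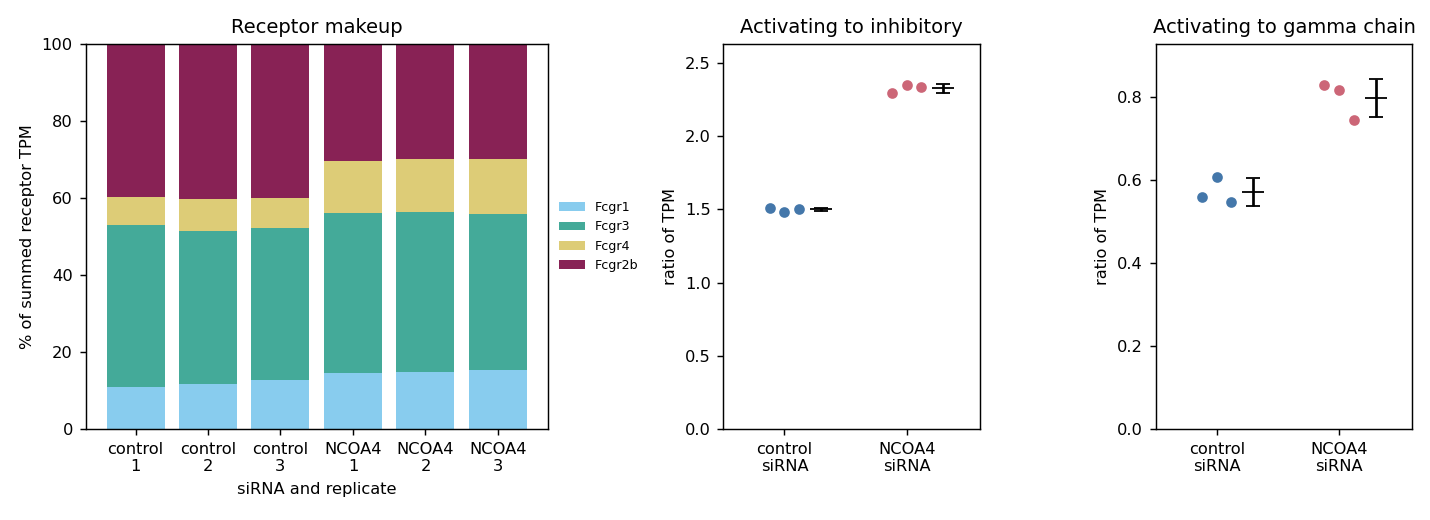
Stacked bars give the percentage of the summed TPM of the 4 receptors taken by each, per library, and points give the ratios of the activating receptors to Fcgr2b and to Fcer1g, with the mean and SD. The control ratios sit at 1.49 to 1.51 and the NCOA4 siRNA ratios at 2.29 to 2.35, and the share of Fcgr2b goes from 40.0% to 30.1%.

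The genes share sequence to different degrees, which bears on how far reads can be assigned to each. In a local alignment of the first listed transcripts, Fcgr3 and Fcgr2b shared 491 of 509 aligned bases, 96.5%, whereas the other receptor pairs were 66.1% to 72.5% identical. Of the 100-base windows of Fcgr3, 44 of 1733 were also found in Fcgr2b, or 2.54%, and of those of Fcgr2b 82 of 5843, or 1.40%, occurred in another gene. Fcgr1, Fcgr4 and Fcer1g had none. Reads from the shared stretch cannot be placed with certainty, so the levels of Fcgr3 and Fcgr2b are less certain than the others.

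Besides the receptors, 7 lists of genes around them were examined, from the kinases at the receptor to actin, other immunoglobulin receptors and the factors known to regulate the receptor genes. Of 135 genes listed, 114 were tested, 12 were called higher and 10 lower by limma, and 92 were not called. These are 10.5% and 8.77% of those tested, against 3.11% and 2.31% of all tested genes, and the median log2 difference was 0.03, equal to the median of all tested genes. All 7 lists were chosen with earlier results of these data known, so these shares are no test of the pathway. After median centring the split turned to 9 higher and 15 lower. The number called varied as single libraries were left out, in the lists and over all tested genes alike. In the lists it was 26, 14 and 13 without control replicates 1, 2 and 3, and 5, 6 and 4 without NCOA4 siRNA replicates 1, 2 and 3. Over all tested genes the 750 calls became 841, 499 and 383 without control replicates 1, 2 and 3. Without NCOA4 siRNA replicates 1, 2 and 3 they became 176, 174 and 183.

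Among the kinases and ITAM adaptors at the receptor, 18 of 20 were tested, 2 rose and 2 fell. The shares called over all tested genes were 3.11% higher and 2.31% lower. Syk, the kinase recruited to the phosphorylated gamma chain, rose from 27.6 ± 1.40 to 32.8 ± 0.309 TPM (SD, n = 3, log2 difference 0.25, adjusted p = 0.0439, limma), a call lost in 11 of 16 alternatives (adjusted p up to 0.166). The adaptors Lat2 (278 ± 6.15 to 242 ± 7.05 TPM, log2 difference -0.20, adjusted p = 0.0343) and Grb2 (133 ± 5.51 to 112 ± 2.27 TPM, log2 difference -0.25, adjusted p = 0.0248) fell, with calls lost in 8 and 6 of the alternatives. Lyn, the most studied Src-family kinase of this pathway, stood at 155 and 162 TPM and was not called. Tyrobp, the other ITAM chain of macrophages, stood at 1062 and 1219 TPM and was not called (log2 difference 0.20, adjusted p = 0.0858).

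On the inhibitory side, 15 of 16 genes were tested, 2 rose and 1 fell, against 3.11% and 2.31% of all tested genes. Inpp5d, which encodes the phosphatase SHIP-1 that Fcgr2b recruits, rose from 107 ± 4.10 to 122 ± 1.87 TPM (log2 difference 0.20, adjusted p = 0.0434, limma), a call lost in 8 of 16 alternatives. Cd300a, an inhibitory receptor with ITIMs, rose from 38.5 to 49.6 TPM (0.36, adjusted p = 0.0247), and Lilrb4a, another, fell from 71.1 to 51.9 TPM (-0.45, adjusted p = 0.0180), each losing its call in 6 alternatives. The phosphatase gene Ptpn6, which encodes SHP-1, was at 520 and 539 TPM and was not called.

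Of the 23 genes of phosphoinositide 3-kinase, phospholipase C and calcium signalling, all tested, 2 rose and 2 fell, with a median log2 difference of -0.09. Over all tested genes 3.11% were called higher and 2.31% lower. The protein kinase C genes went opposite ways, Prkcd higher by 0.34 (adjusted p = 0.00968, limma) and Prkce lower, at -0.43 (adjusted p = 0.0248). Pik3r1, a regulatory subunit of phosphoinositide 3-kinase, rose from 14.7 to 17.7 TPM (0.26, adjusted p = 0.0330), and Itpr3, a calcium channel of the endoplasmic reticulum, fell from 65.2 to 53.8 TPM (-0.27, adjusted p = 0.0127). Under the 16 alternatives the calls of Pik3r1, Prkce, Itpr3 and Prkcd were lost in 9, 6, 4 and 3. In the list of actin and the phagocytic cup, 29 of 31 genes were tested and 0 were called by limma. This stands against 3.11% of all tested genes called higher and 2.31% lower. In the list, 5 genes had an unadjusted p under 0.05 and 2 were called by limma-voom. The log2 differences of the 29 genes lay between -0.28 and 0.18. The most abundant, Cfl1, the actin-severing protein cofilin, was at 2284 ± 188 and 2082 ± 34.2 TPM (SD, n = 3).

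**Figure D4:**
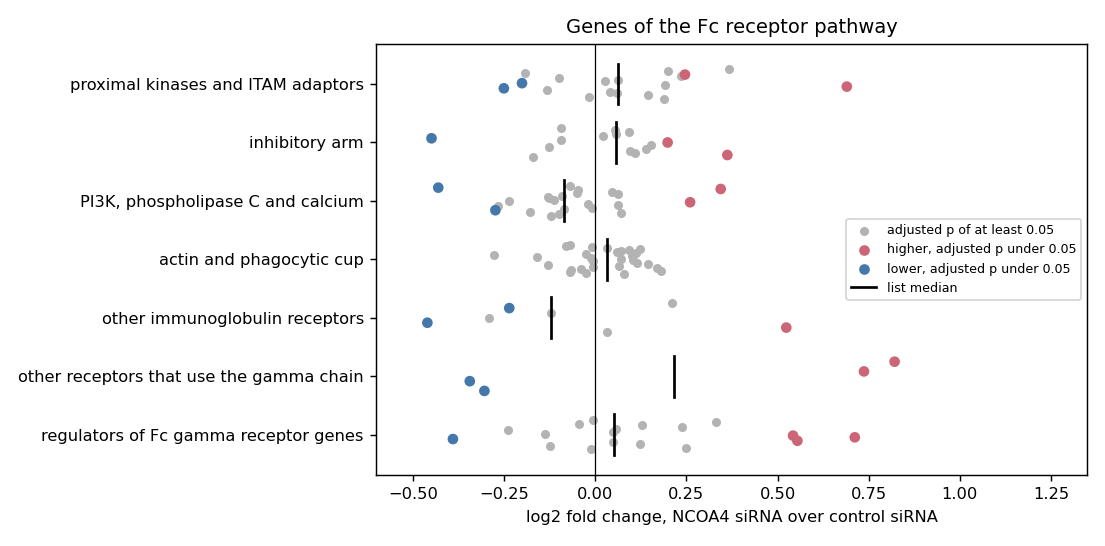
Log2 difference of every tested gene in the 7 lists, called genes in red (higher) or blue (lower), others in grey, and a black bar at the list median. Calls lie in both directions in every list that holds any, and the actin list holds none, within -0.28 to 0.18.

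The gamma chain also serves other receptors, and of the 10 listed, 4 were tested. Of these, 2 were called higher and 2 lower, against 3.11% and 2.31% of all tested genes. The list was chosen with earlier results of these data known. The C-type lectin receptors of this group lie close together on chromosome 6 and did not move together. Clec4n, which encodes Dectin-2, a receptor of fungal mannans, measured 48.4, 56.5 and 50.9 TPM in control and 88.9, 84.7 and 86.7 TPM in NCOA4 siRNA libraries. It rose by 0.74 on the log2 scale (adjusted p = 0.00234, limma). Clec4d fell from 372 ± 9.88 to 301 ± 4.76 TPM (-0.30, adjusted p = 0.00827), and Clec4e, which encodes the mycobacterial glycolipid receptor Mincle, fell to 86.3 ± 1.31 TPM (-0.34, adjusted p = 0.00803). Lilra5 rose from 2.66 ± 0.611 to 5.02 ± 0.108 TPM (0.82, adjusted p = 0.0314), on 25 to 65 rebuilt reads per library, and lost its call in 7 alternatives. Clec4n kept its call in all 16, Clec4e lost it in 1 and Clec4d in 4.

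Of the 16 listed genes of other receptors for immunoglobulins, 7, the IgE receptor genes Fcer1a, Ms4a2 and Fcer2a among them, were at 0 in every library. Of the 7 that were tested, 1 rose and 2 fell, against 3.11% and 2.31% of all tested genes. Fcgrt, the neonatal Fc receptor that returns IgG from endosomes, rose from 26.0 ± 4.06 to 37.3 ± 0.515 TPM (log2 difference 0.52, adjusted p = 0.0437, limma). Fcrl1 fell from 15.5 to 11.2 TPM (-0.46, adjusted p = 0.0251), and Lgals3, the lectin galectin-3, fell from 998 to 847 TPM (-0.24, adjusted p = 0.0286). Fcgrt and Lgals3 each lost the call in 8 of 16 alternatives and Fcrl1 in 6.

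Of 19 listed regulators of Fc gamma receptor genes, 18 were tested, 3 rose and 1 fell, against 3.11% and 2.31% of all tested genes. Irf1, an interferon-induced transcription factor, rose from 15.1 ± 0.472 to 22.2 ± 1.47 TPM (SD, n = 3), by 0.54 on the log2 scale (adjusted p = 0.00776, limma). Receptor subunits for the cytokines IL-10 and IL-4 rose, Il10ra from 25.6 to 37.8 TPM (0.55, adjusted p = 0.00776) and Il4ra from 9.74 to 16.2 TPM (0.71, adjusted p = 0.0167), whereas the second IL-10 receptor subunit, Il10rb, fell from 23.8 to 18.0 TPM (-0.39, adjusted p = 0.0225). Il10ra was called in all 16 alternatives, whereas Irf1 lost its call in 1, Il4ra in 3 and Il10rb in 5. Spi1, which encodes PU.1, stood at 210 and 218 TPM and Irf8 at 72.4 and 65.6 TPM, neither of them called. Whether any regulator had a part in the receptor differences was not tested.

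Fcgr2b, Fcgr4, Fcgr3 and Fcer1g lie in this order on chromosome 1, with 42.4 kb between the first pair and 21.4 kb between Fcgr4 and Fcgr3, and Fcer1g 165 kb farther on. Within 150 kb of any of the 5 genes lay 39 other protein-coding genes, of which 25 were tested. By limma 0 of these 25 were called, against 3.11% of all tested genes higher and 2.31% lower, 3 had an unadjusted p under 0.05 and limma-voom called 2, Usp21 and Sf3b4. The log2 differences were 0.27 for Usp21 (adjusted p = 0.0881), -0.25 for Sf3b4 (adjusted p = 0.108) and 0.16 for Ppox.

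**Figure D5:**
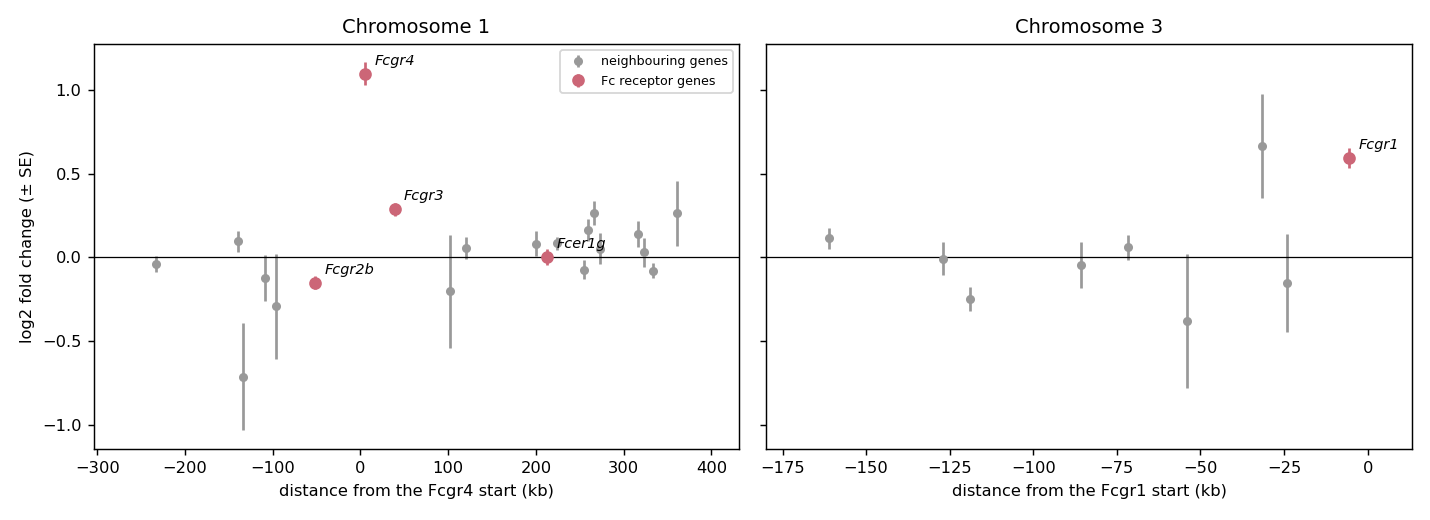
Log2 difference of the tested protein-coding genes within 150 kb of any of the 5 genes (grey, bars are the SE) and of the 5 genes (red), by distance in kb from the start of Fcgr4 or of Fcgr1. The neighbours lie between -0.71 and 0.67 and none is called by limma, while Fcgr4 stands at 1.10 and the neighbours farthest from 0 have wide bars.

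The genes whose pattern over the 6 libraries was most like that of each called receptor were found among 9046 expressed protein-coding genes, by the root mean square difference of centred log2 values. For Fcgr1 these were Tlr2, at a difference of 0.0300, Abcc3 and Rnf135. Tlr2, the receptor for bacterial lipoproteins, went from 89.2 to 134 TPM. Its log2 difference was 0.586, beside 0.594 for Fcgr1, a closeness that follows from how Tlr2 was picked. For Fcgr3 they were Celf2, at 0.0154, Gpalpp1 and Pik3r1, and for Fcgr4 they were Ms4a6d, at 0.0707, Cd33 and Zfp658. Among the 5 genes themselves the closest pair was Fcgr2b and Fcer1g, at 0.108, then Fcgr1 and Fcgr3, at 0.176, and the farthest was Fcgr4 and Fcgr2b, at 0.627. The values are not scaled, so genes that change little come out close whatever their pattern. Fcgr2b and Fcer1g had log2 differences of -0.15 and 0.001, and only Fcgr2b was separate between the groups. These distances describe 6 libraries of 2 groups and carry no test.

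The macrophage markers that moved beside the receptors were Adgre1, from 108 to 164 TPM (adjusted p = 0.0248, limma), Csf1r, from 341 to 422 TPM (adjusted p = 0.0218), Mertk, from 28.0 to 39.2 TPM (adjusted p = 0.00965), and Cd14, from 1174 to 975 TPM (adjusted p = 0.0361). Of the 8 listed markers, 3 were called higher and 1 lower, against 3.11% and 2.31% of all tested genes. Control replicate 1 held the lowest value of Adgre1, Csf1r and Cd14, as it did of Fcgr1 and Fcgr4. The part of these in the receptor differences was not tested.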

How the data were processed

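The authors deposited TPM for each of the 6 libraries, in which reads per Ensembl gene are corrected for gene length and brought to a common library total. Libraries were poly(A)-selected and stranded. The submitters' processing notes name Trimmomatic 0.33, FastQC, HISAT2 2.1.0, featureCounts, edgeR and mm10. The annotation, the strand setting and the handling of reads with several matches are not given in the sources used here. Because of that fixed total, a change in abundant genes moves all others.

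The test was limma 3.58.1 (R 4.3.3) on genes whose TPM averaged 0.5 or more, on log2(TPM + 0.5), with lmFit, eBayes with a trend and Benjamini-Hochberg adjustment over all tested genes. Fold changes are on this scale. Ratios of one receptor to another and single values were compared by an exact two-sided permutation test over 20 arrangements (scipy 1.17.1). Ratios of summed receptors were not tested. Samples were grouped by the siRNA in their labels. Whole reads were rebuilt from TPM and GENCODE M21 exon length, and 98.5% of the 21096 genes above 0 came out whole within 0.02 reads in all 6 libraries. They gave the depth (1 read on a 2 kb gene was worth 0.0825 to 0.0959 TPM) and an alternative test with limma-voom.

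The genes described and all lists were chosen with earlier results of these data known. Genes named are the 5 receptor and chain genes, Ncoa4, up to 6 called genes of each list (or, with none called, the most abundant), the neighbours within 150 kb at an unadjusted p under 0.05, and the 3 genes most like each called receptor. Others (Lyn, Tyrobp, Ptpn6, Spi1 and Irf8) were named for their role, with their values seen, and a few genes within the rule are not reported here. The alternatives were other pseudocounts, filters and scalings, eBayes without a trend, limma-voom, a block on replicate number, and leaving out each library. Protein sequences were not used here.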

Additional observations from a re-analysis of the deposited data

How the results depend on the processing

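Fcgr4 and Fcgr1 were called higher under all 16 alternatives, with log2 differences of 1.03 to 1.16 and 0.53 to 0.64, and Fcgr1 passed the 1.5-fold threshold in 13 of them. Fcgr3 (0.23 to 0.31) was called in 12. It missed the threshold without the eBayes trend (0.29, adjusted p = 0.0507, limma) and without NCOA4 siRNA replicate 1 or 2, within a range of 0.26 to 0.31 over libraries left out. Fcgr2b was called after median centring (-0.21) and by limma-voom (-0.14), and lay between -0.17 and -0.13 with a library left out. Fcer1g changed sign after median centring (-0.057), after removal of mitochondrial genes (-0.013) and with libraries left out (-0.031 to 0.026). The number of called genes among the 5 was 2 to 4. The causes were not tested.

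In the 7 lists, 22 calls (12 higher, 10 lower) became 12 (7 and 5) without the eBayes trend, 24 (9 and 15) after median centring, 30 (17 and 13) with limma-voom, and 4 to 26 (3 to 14 higher, 1 to 12 lower) with a library left out. Over all genes the 750 calls became 404 without the trend, 1484 with limma-voom, 499 without a filter and without control replicate 2, 383 without control replicate 3, and 176, 174 and 183 without NCOA4 siRNA replicates 1, 2 and 3. The activating to inhibitory ratio was 1.54 to 1.56 times control with a library left out and 1.43 without Fcgr4. Over 35 other named genes, 0 results reversed, 137 missed the threshold and 2 newly passed it.

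Replicate numbers were shared between the groups. Deviations of same-numbered libraries correlated at 0.0328, -0.0597 and 0.0627, and those of differently numbered libraries at -0.0769 to 0.0432. No sign of pairing was seen, but 3 libraries per group are too few to settle whether the numbers pair them. With the replicate block, Fcgr3 was 0.29 (adjusted p = 0.0532, limma), the lists held 4 calls (3 higher, 1 lower) and all genes 161.

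Depth limits low genes most: Lilra5 rests on 25 to 65 reads per library, whereas each of the 5 genes had at least 360.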
